A study of Mus musculus with 74 samples.

Results

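The binding sites described here are ChIP-seq peaks that lay at promoters of protein-coding genes in the mouse. The proteins were Krüppel-associated box (KRAB) zinc finger proteins, KRAB-ZFPs for short, without Gm13152, the KRAB-ZFP with the most such peaks. A peak counted as a coding-promoter peak where the midpoint of its 200 bp window lay within 1 kb of an annotated transcript start of a protein-coding gene (mm9, gencode vM1). 2732 of 47822 peaks met this rule, or 5.71% (Wilson 95% interval 5.51 to 5.92, which covers counting error only). Bases within 1 kb of a coding start made up 3.1% of the sequenced genome. With Gm13152 included, 9.86% of all 53011 peaks were coding-promoter peaks, and Gm13152 alone gave 2496 of these 5228.

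Each KRAB-ZFP was assayed once, as an overexpressed protein with a triple epitope tag expressed from stably integrating vectors (no replicate error can therefore be given). F9 embryonal carcinoma (EC) cells, a teratocarcinoma line with features of the early embryo, carried 17 of the 66 KRAB-ZFPs fused at the N-terminus to FLAG and 30 fused at either end to HA, and these were called against input and a control for the same tag. A further 10 had a C-terminal HA tag in F9 cells, were mapped with Bowtie2 and were called against a Gm14296 control. The other 9 had a C-terminal HA tag in B6 embryonic stem (ES) cells and were called against input alone. No untreated comparison within a KRAB-ZFP was part of the design, and the controls entered only through peak calling. Tags inside peaks summed to between 1681 and 395483 per KRAB-ZFP; library depth is not given by the peaks, so a promoter without a peak is not evidence of absent binding.

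KRAB-ZFPs are the largest family of mammalian transcription factors and pair a KRAB domain with an array of C2H2 zinc fingers, each finger reading a few bases of DNA. The KRAB domain recruits KAP1 (Trim28), which brings in the H3K9 methyltransferase Setdb1 and other repressors. The family is best known for silencing retrotransposons, and its members often read short sequences inside particular repeat families. Promoters, where transcription starts, are a different setting: they are mostly single-copy sequence, and many are rich in GC and CpG.

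The sites below show the DNA under coding-promoter peaks that held the letters typical of the same protein elsewhere. For each KRAB-ZFP with at least 20 coding-promoter peaks and at least 50 single-copy peaks away from them, the leading 8-mer was the one most in excess in those other peaks over windows 1 kb to either side, on both strands. The capitals mark that 8-mer, read 5′ to 3′ on the strand given, in 30 bases of the mm9 reference around it. The sites shown come from high-fold single-copy promoter windows holding it.
Zfp617 at Ctnnal1 (chr4:56858361-56858390, minus strand): gggaagagacaCCATGACCaaggcaactct
Zfp617 at Cap2 (chr13:46596493-46596522, minus strand): gagaacagacaCCATGACCacagcaactct
Zfp617 at Zfp809 (chr9:22040324-22040353, minus strand): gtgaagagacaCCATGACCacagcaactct
Zfp961 at Gmeb2 (chr2:181022776-181022805, minus strand): gcttccgcgctGGGCGCCAaataagtctcc
Zfp961 at Ech1 (chr7:29615087-29615116, plus strand): ggccacctcttGGGCGCCAactagttgtga
Gm13154 at Bahcc1 (chr11:120093983-120094012, minus strand): ttgcgcagatcATTGCTGCtgaatgggaat
Gm13154 at Tsc22d1 (chr14:76816830-76816859, plus strand): ataatgttaacATTGCTGCtgtgggtagtt
Zfp599 at Higd1a (chr9:121767215-121767244, plus strand): cagcgtagcagAACATGGCggcctctgaga
LOC102638055 at Zscan21 (chr5:138558172-138558201, plus strand): cagccgctgtgAGGATTCCagactccaaag
LOC102638055 at Ehmt2 (chr17:35047567-35047596, minus strand): gttctgaggggAGGATTCCttgatctaagg
Zfp46 at Syt7 (chr19:10463250-10463279, minus strand): ccagctggccaCCTCCTCCgaggtgccctc
Zfp46 at Sltm (chr9:70390647-70390676, plus strand): caccgccgctgCCTCCTCCtccgccgccgc
Zfp273 at Tyms (chr5:30396566-30396595, minus strand): ccacaggaagaCTAACAACcatctgtaact
Zfp273 at Cox7a2l (chr17:83914094-83914123, minus strand): aggtgaaattcCTAACAACccttggtacat
Gm13225 at Fscn1 (chr5:143732557-143732586, minus strand): tcctcaacaccAAAAAAAAaaaaagataat

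Positions are distances to the nearest coding start, negative upstream. In Zfp617 the 3 sites resembled each other well beyond the 8-mer, whereas in Zfp961, Gm13154 and LOC102638055 the flanks differed. The Zfp617 window at Zfp809, itself a KRAB-ZFP gene, lay in an intron at 943 bp from a start and had a fold enrichment of 40.32. The Zfp961 site at Gmeb2, which encodes a DNA-binding modulator of glucocorticoid responses, lay at -50 bp and had a fold of 118.8. The LOC102638055 site at Ehmt2, which encodes the H3K9 methyltransferase G9a, lay in an intron at -340 bp, with a fold of 115.87.

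The coding-promoter peaks were spread unevenly over the proteins. All 66 KRAB-ZFPs had at least 1, with a median of 17.5, and 9 of them held 1595 of the 2732 (58.4%). These were Gm14412 with 308, Gm14419 with 201, Gm13225 with 191, Gm14401 with 180, Zfp661 with 175, Gm13154 with 166, Zfp961 with 133, Zfp46 with 125 and Gm13251 with 116. At the other end 18 KRAB-ZFPs had under 10, and Rex2 had 1 of 67 peaks.

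The share of a protein's peaks at coding promoters ranged from 0.299% in Gm14406, with 17 of 5685, to 47.2% in Zfp456, with 34 of 72 (Wilson 95% interval 36.1 to 58.6). Zfp46 followed with 125 of 300 (41.7%, interval 36.2 to 47.3), Zfp810 with 68 of 243 (28%, interval 22.7 to 33.9), Zfp493 with 28 of 117 (23.9%, interval 17.1 to 32.4) and Zfp273 with 31 of 140 (22.1%, interval 16.1 to 29.7). The intervals of the first pair overlapped, as did those of the last 3. The median false discovery rate of the coding-promoter peaks was 22.2% in Zfp456 and 11.5% in Zfp273. It was 2.32% in Zfp493 and 0 in Zfp46 and Zfp810. Proteins with many peaks often had low shares: Gm21082 had 35 of 2211 (1.58%), Gm13251 116 of 3300 (3.52%) and Gm14419 201 of 3906 (5.15%). The plot of shares by KRAB-ZFP shows that both high and low shares occurred in each F9 setup with FLAG or HA tags.

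**Figure D1:**
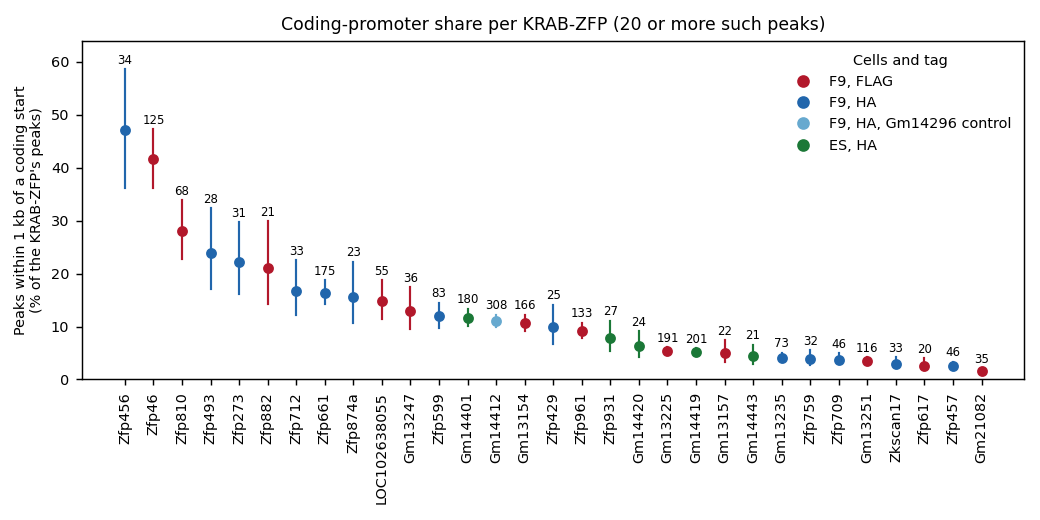
Share of each KRAB-ZFP's peaks lying within 1 kb of a coding start (y axis, percent) for the 31 KRAB-ZFPs with at least 20 such peaks, coloured by cells and tag. Points are single samples, bars are Wilson 95% intervals for counting error and the number above each is its count of coding-promoter peaks; Zfp456 and Zfp46 stand highest at 47.2% and 41.7%.

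Whether the cells or the tag went with the share was compared over KRAB-ZFPs. The mean share was 11.8% ± 11.2 (SD, n = 17) with FLAG and 8.57% ± 9.54 (SD, n = 30) with HA in F9 cells, a difference of 3.27 percentage points (two-sided permutation test, p = 0.305). F9 samples averaged 9.07% ± 9.54 (SD, n = 57) and ES samples 5.12% ± 3.15 (SD, n = 9), a difference of 3.95 points (two-sided permutation test, p = 0.217). Neither difference exceeded the spread between proteins. With peaks at a false discovery rate of at most 5%, FLAG exceeded HA by 6.5 points (permutation p = 0.0292); with a p under 1e-10 and an enrichment over 20 throughout, the difference between F9 and ES samples turned to -0.961 points (permutation p = 0.802). Different proteins were assayed in each setup, so protein and setup cannot be told apart.

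The peaks crowded around the start itself. 399 coding-promoter peaks lay 0 to 100 bp downstream of the nearest start and 357 lay within 100 bp upstream, against 66 and 79 in the outermost 100 bp on either side. 1149 of the 2732 (42.1%) lay within 200 bp of a start, while such positions were 23.9% of all bases within 1 kb of a coding start. Upstream and downstream positions were close to even, with 51.8% upstream. The midpoint fell in an intron for 1054, outside any annotated gene for 798, in a UTR for 476, in a coding exon for 296 and in another exon for 108. Of these peaks 837 were near internal starts only. With starts of transcripts themselves annotated as protein-coding only, 2347 of the 2732 remained.

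KRAB-ZFPs differed in this crowding. In Zfp46, 75 of 125 windows (60%) lay within 200 bp of a start, in Zfp810 41 of 68 (60.3%), in Zfp456 24 of 34 (70.6%) and in Gm14412 168 of 308 (54.5%). In contrast, Gm13225 had 43 of 191 (22.5%), Gm13251 21 of 116 (18.1%), Zfp457 and Zfp709 each 6 of 46 (13%), Zkscan17 4 of 33 (12.1%) and Zfp617 2 of 20 (10%). All of these lay below the 23.9% of bases. The coding-promoter peaks of Gm13225 had a median called width of 2372 bp, against 331 bp in Zfp46 and 266 bp in Gm13251. A 200 bp window therefore fixes the position of Gm13225 less closely. At the limit of the rule, the outermost windows inside were Zfp46 at Cdh22 (-999 bp, fold 27.21), Gm13225 at Prss57 (-998 bp, fold 11.6) and Gm13251 at Gal3st1 (-998 bp, fold 24.74). The nearest outside were Gm14419 at Slc1a3 (1001 bp, fold 15.69), Zfp810 at Comp (1001 bp, fold 46.74) and Gm14412 at Cdk4 (1001 bp, fold 53.68).

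**Figure D2:**
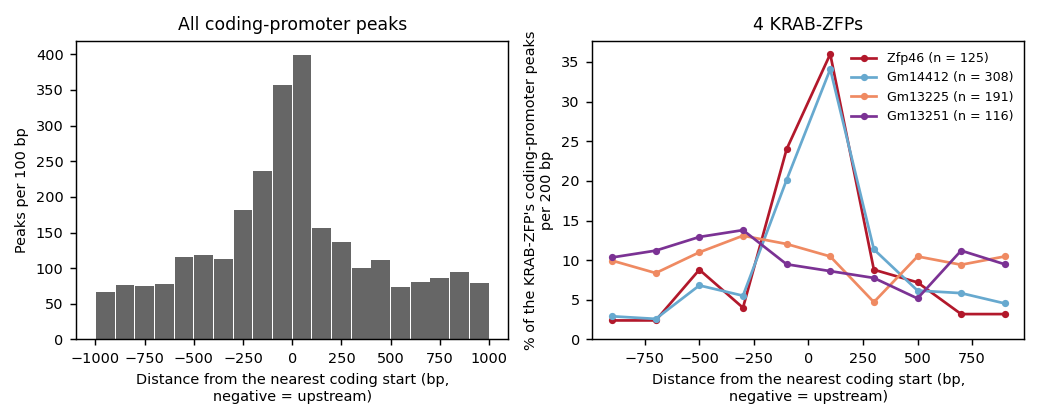
Position of coding-promoter peaks around the nearest coding start, negative distances being upstream, as counts per 100 bp for all 2732 (left) and as percent per 200 bp for 4 KRAB-ZFPs (right). The counts rise to 399 just downstream of the start, and Zfp46 and Gm14412 peak there whereas Gm13225 and Gm13251 stay nearly flat. Gm13225 peaks were called broadly (median width 2372 bp), so their positions are less exact.

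Sequence composition around the starts followed the same division. A start counted as CpG-rich where its surrounding 1 kb had a GC content of at least 50% and an observed over expected CpG ratio of at least 0.6. By this measure 53.6% of the coding-promoter peaks lay nearest to a CpG-rich start, against 44.2% of all coding genes at their outermost start. The percentage was 86.4% for Gm13157, 82.4% for Zfp456, 80.9% for Zfp810, 80.6% for Gm13247, 78.4% for Zfp46 and 73.1% for Gm14412, but 31.9% for Gm13225, 20.7% for Gm13251 and 17.4% for Zfp457. Zfp617 stood at 30%.

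Coding-promoter peaks were compared with the other peaks of the same protein in 48 KRAB-ZFPs with at least 10 of each. A difference was found in sequence copy number, taken as the median number of genomic copies of a window's 24-mers. Promoters are mostly single-copy sequence, so the rule that chose these peaks favoured a lower copy number there. The share over all coding promoters was not counted, so the test below does not separate the proteins from that sequence. Multi-copy windows (2 or more copies) averaged 10.5% at coding promoters and 33.1% elsewhere, a difference of -22.6 points ± 24.2 (SD, n = 48), lower at promoters in 45 KRAB-ZFPs and higher in 3 (sign-flip permutation test, adjusted p = 5e-05, resting on the smallest p that the resamples can give). Gm13157, a KRAB-ZFP with FLAG tag, went from 81.5% of other windows to 0 of 22 at promoters, which allows a share of up to 13.6% (3 counts of 22). Gm14412 went from 75.6% to 9.42%. The 3 exceptions were Zfp617, with 55% at promoters and 39.2% elsewhere, Zfp933, with 18.2% and 8.78%, and Zfp456, with 11.8% and 2.63%. The mean difference was -21.6 points with FLAG and -9.82 with HA in F9 cells, -33.6 in the F9 samples with the Gm14296 control and -43.6 in ES cells. Reads with several equally good positions were placed at random by the mapper, and the part of that step in the copy number difference was not tested.

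Strength of the calls differed little. The median fold was on average 0.06 lower on the log2 scale at promoters (difference -0.06 ± 0.26 SD, n = 48 KRAB-ZFPs, sign-flip permutation adjusted p = 0.217), and it was lower in 28 and higher in 19. Gm13157 had the largest drop, with a median fold of 29.8 at promoters and 64 elsewhere. Gm14419 followed with 13.2 and 25, while LOC102638055 was among those higher at promoters, with 36.5 against 29.7. Tags per peak (difference of log10 values 0.00955, adjusted p = 0.522) and called width (0.00512, adjusted p = 0.522) were also within the spread between proteins by the same permutation tests. Among single-copy windows, however, tags were higher at promoters by 0.0323 log10 units (permutation, adjusted p = 0.00997) and called widths by 0.0158 (adjusted p = 0.0468).

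Sharing of a window with another KRAB-ZFP, taken as an overlap of at least 25%, averaged 24.3% at promoters and 21% elsewhere (difference 3.26 points ± 11.8 SD, n = 48, sign-flip permutation adjusted p = 0.157). Gm13152 counted among the other KRAB-ZFPs here, and 48.1% of its own peaks were coding-promoter peaks. A shared window raises the value of every KRAB-ZFP in it, and many samples were called against the same control. The KRAB-ZFPs are therefore not independent in this test, and its p-values may be too small. The call depended on the setting. By the same permutation test the difference was 7.59 points over the 31 KRAB-ZFPs with at least 20 coding-promoter peaks (adjusted p = 0.00085), 8.29 within 500 bp (0.0005), 5.04 in single-copy windows (0.00997) and 5.48 under the stricter thresholds (0.0291). It was 3.51 points with overlaps of at least 50% (0.0762), and with overlaps with Gm13152 left out it was -0.807 points (0.611), higher in 23 and lower in 25. The other settings still counted overlaps with Gm13152 and were not rerun without it. With Gm13152 counted, promoter sharing exceeded sharing elsewhere by the most in Gm13157, with 36.4% against 5.46% elsewhere, Zfp882, with 61.9% against 31.6%, Zfp493, with 60.7% against 33.7%, and Zfp874a, with 34.8% against 11.2%. Over the 48 KRAB-ZFPs, sharing was higher at promoters in 29 and lower in 19. The largest falls were in Gm14410, with 40% against 63.6%, and Zfp872, with 50% against 71.9%. In Zfp759 and Zfp810 sharing was also lower at promoters, with 37.5% against 49% and 36.8% against 48%.

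**Figure D3:**
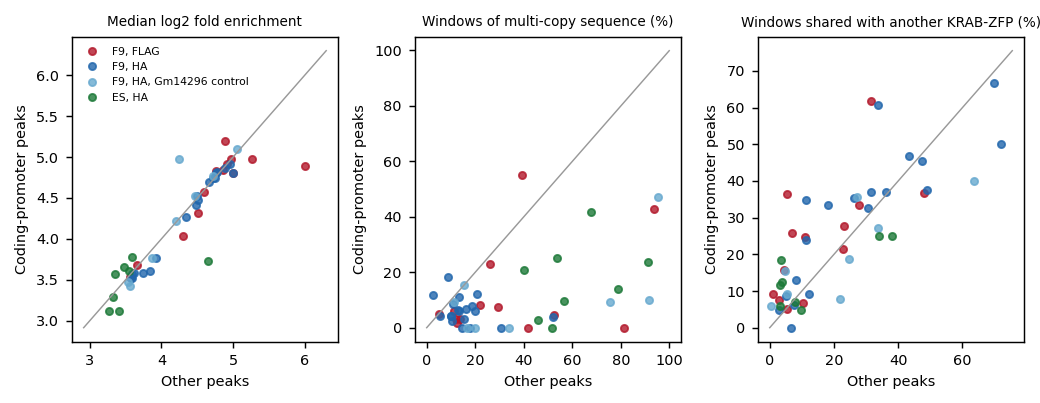
Coding-promoter peaks (y axis) against the other peaks of the same KRAB-ZFP (x axis) for 48 KRAB-ZFPs: median log2 fold enrichment, percent of windows of multi-copy sequence and percent of windows shared with another KRAB-ZFP. Overlaps with Gm13152 count as shared. Each point is 1 KRAB-ZFP coloured by cells and tag and the grey line marks equality; in the middle panel 45 of 48 points fall below it.

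The leading 8-mers differed between proteins in how often they recurred at promoters. A leading 8-mer could be taken for 30 KRAB-ZFPs, and in 7 of these it was a simple repeat such as a run of A. Of the coding-promoter peaks of the other 23, 226 of 1876 (12%) held the protein's own 8-mer, against 21.9% of their single-copy peaks elsewhere, a share that the choice of the 8-mer raises. When the 8-mer was chosen on odd-numbered chromosomes and counted in the remaining other peaks, promoter peaks held it less often than other peaks in 22 of 30 KRAB-ZFPs and more often in 8. The background for each 8-mer was its share of the 200 bp windows centred on the outermost start of all 22367 coding genes. Coding-promoter peaks lay anywhere within 1 kb of a start, so their positions are unlike those of this background.

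In some proteins the promoter peaks carried the 8-mer as often as elsewhere. Zfp617 held CCATGACC in 18 of 20 coding-promoter windows (90%, Wilson 95% interval 69.9 to 97.2), in 78.1% of other windows and in 0.72% of all coding promoters. Zfp46 held CCTCCTCC in 62 of 125 (49.6%) and in 49.7% elsewhere, against 7.69% of all coding promoters, and Gm13225 held a run of 8 A in 140 of 191 (73.3%), 76.3% and 3.58%. In windows 1 kb to either side of the Gm13225 promoter windows the run of A was in 8.12%. Gm14420 held CAGCAGCA in 15 of 24 (62.5%), 47% and 3.48%, and LOC102638055 held AGGATTCC in 8 of 55 (14.5%), 17.6% and 0.863%. Their counting intervals at promoters all included the value elsewhere. For Zfp46 this rested on the choice of 8-mer: chosen on odd-numbered chromosomes it was CCTCCAGG, in 22.4% of promoter windows and 34.8% of the held-out others.

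A second set held it at promoters less often than elsewhere but more often than promoters in general. Zfp961 held GGGCGCCA in 37 of 133 coding-promoter windows (27.8%, interval 20.9 to 36), in 47.8% elsewhere and in 1.3% of all coding promoters. Gm13154 held ATTGCTGC in 31 of 166 (18.7%, interval 13.5 to 25.3), 42.4% and 0.438%. Zfp599 held AACATGGC in 15 of 83 (18.1%, interval 11.3 to 27.7), 37.1% and 1.17%. In the Gm13154 promoter peaks without the 8-mer 18.5% were shared with another KRAB-ZFP, and in the 31 with it 3.23%. The direction differed between proteins. Sharing without and with the 8-mer was 25% and 62.5% in Gm13247, and 8.51% and 12.5% in LOC102638055.

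In 7 KRAB-ZFPs, with 186 coding-promoter peaks between them, no promoter window held the 8-mer. Zfp874a held ATTGGTTC in 52 of 118 windows elsewhere (44.1%) and in 0 of 23 at promoters (Wilson upper limit 14.3%). Zfp882 held GTGGTGTA in 32% elsewhere and 0 of 21 (upper limit 15.5%), Zfp712 CAAGGTCA in 23.2% and 0 of 33 (upper limit 10.4%), and Gm13157 CCAGATGA in 19.2% and 0 of 22 (upper limit 14.9%). Zfp493, Zfp759 and Zfp931 also had none at promoters, but their 8-mers reached at most 16.4% elsewhere. The upper limit lay below the share elsewhere in 5 of the 7, and not in Zfp759 and Zfp931. With 8-mers chosen on odd-numbered chromosomes, Zfp712 and Gm13157 kept theirs and again had none at promoters. Zfp874a was given a different one, ACCAATGC, and had none of it at promoters. Zfp882 was given a different, A-rich 8-mer found in 19% of its promoter windows and 7.89% of the held-out others. Zfp759, Zfp493 and Zfp931 were also given different 8-mers, in 6.25%, 3.57% and 3.7% of promoter windows and 7.53%, 7.32% and 5.56% of the held-out others. Between 18.5% and 61.9% of the promoter peaks of these 7 proteins were shared with another KRAB-ZFP. Their leading 8-mer as a pool, CCCGCCCC, was in 15.1% of these windows and in 17.6% of all coding promoters. The latter windows were centred on starts, whereas these peaks lay anywhere within 1 kb. An 8-mer is a coarse stand-in for a zinc finger site, and its absence from a window says only that these letters are not there.

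**Figure D4:**
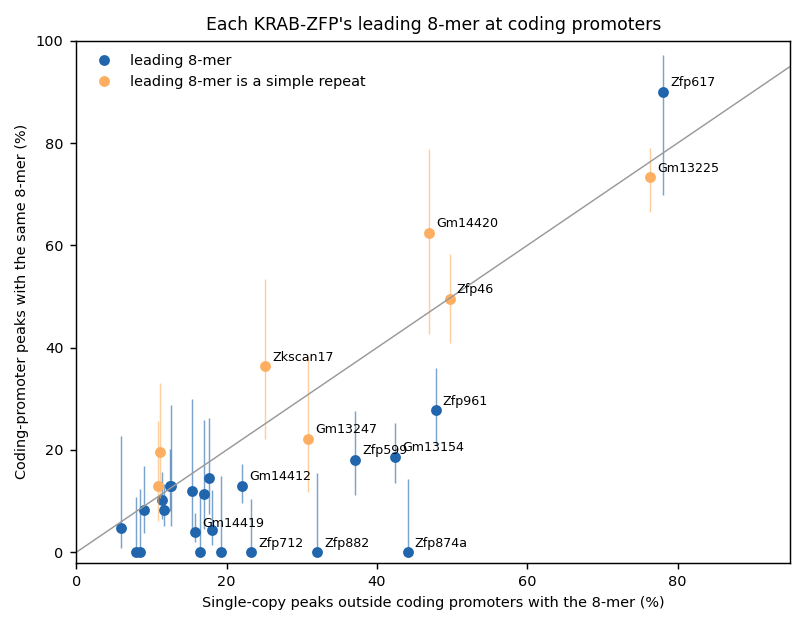
Share of coding-promoter peaks (y axis, percent) holding a KRAB-ZFP's leading 8-mer against the share of its single-copy peaks elsewhere (x axis, percent), for 30 KRAB-ZFPs, with Wilson 95% intervals of the promoter share and a grey line of equality. Zfp617, Gm13225 and Zfp46 lie near the line, Zfp961, Gm13154 and Zfp599 below it, and Zfp874a, Zfp882 and Zfp712 at 0.

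The promoter peaks of some proteins had leading 8-mers of their own, chosen and counted in the same windows, which raises their share at promoters. In Gm14419 it was ACTGCGGG, in 23 of 201 coding-promoter windows (11.4%), 2.4% of other windows and 0.791% of all coding promoters. It differs from the 8-mer that led its other peaks, ACTGTGGG, by T5C counted from the 5′ end, which makes a CpG. In Gm14412 it was GCCGCCGC, in 122 of 308 (39.6%), against 5.12% of other windows and 9.36% of all coding promoters. In Zfp810 it was GCCCCGCC, in 21 of 68 (30.9%), against 1.2% and 15.5%. In Gm14401 the same letters were in 13.9% of promoter windows, 1.94% of windows 1 kb to either side and 15.5% of all coding promoters. The last share is from windows centred on starts, while 46.7% of the Gm14401 windows lay within 200 bp of one. These positions are unlike.

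The highest fold enrichments of all were at single genes of varied roles. The first was LOC102638055 at Rpl11, which encodes a protein of the large ribosomal subunit, with a fold of 187.3 and 329 tags at a window at -126 bp. Its 200 bp, outside any annotated exon and in the direction of the gene, are given here because they are the strongest coding-promoter peak, and they did not hold the 8-mer of LOC102638055.
Rpl11 (chr4:135609370-135609569, minus strand): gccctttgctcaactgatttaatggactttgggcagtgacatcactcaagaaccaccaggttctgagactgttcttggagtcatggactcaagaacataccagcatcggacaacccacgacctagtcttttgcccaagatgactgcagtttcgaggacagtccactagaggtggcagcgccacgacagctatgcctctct

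Gm13154 at Sec61a2, which encodes a subunit of the ER translocon, had a fold of 176.4 and 377 tags. Zfp810 lay between the starts of Trip12, an E3 ubiquitin ligase gene, and Fbxo36, with a fold of 174.69 and 318 tags. Both windows were single-copy and shared with no other KRAB-ZFP. Gm13154 at Ankrd46 reached 165.95, Zfp661 at Mllt10 163.11 in a window of 3 copies, LOC102638055 at Zscan21 150.95, Gm14412 at Rims4 145.5, Gm13154 at Tesk1 143.73, Zfp599 at Brwd1 142.29 and Zfp46 at Spdef 139.44. Only the Zscan21 window among these 10 held the KRAB-ZFP's own 8-mer. The Sec61a2 and Mllt10 windows lay near internal starts only.

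Within single proteins the strongest promoters were as varied. For Gm14412 they were Rims4 and then Zfp292 (fold 132.81), Vars2 with Gtf2h4 (132.48), Cep57 (131.81) and Herc1 (131.43), where Vars2 encodes the mitochondrial valyl-tRNA synthetase and Cep57 a centrosomal protein. For Gm14419 in ES cells they included Cdc42bpb (65.62) and Mtmr10 (62.27), followed by Gm17672 (62.05) and Gm7735 (57.86) in windows of 157 and 141 copies. For Gm14401, also in ES cells, they were Usp13 (60.22), Vrk3 with Zfp473 (46.45), Abhd8 (43.25), Hnrnph1 (42.6) and Hccs (41.64), but the false discovery rates of these 5 peaks were 29.41% to 75%. The folds of the F9 and ES sets were called against different controls and are not compared.

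Zfp661 was strongest at Mllt10, Ltbp4 (105.28), Zfp2 (102.77), Ism1 (102.77) and Limk1 (95.25). Zfp961 was strongest at Gmeb2, Naa50 with Atp6v1a (111.7), Ror1 (109.01), Ech1 (103.65) and Pabpc5 (102.35), all single-copy windows, and the Gmeb2 and Ech1 windows held its 8-mer. Zfp46 was strongest at Spdef, an ETS factor gene, and at Syt7 (79.92), Sltm (78.22), Usf2 (75.36) and Fahd2a (63.79), with CCTCCTCC at Syt7, Sltm and Usf2. Gm13154 was strongest at Sec61a2, Ankrd46, Tesk1, Bahcc1 (117.6) and Acap1 (113.68), and Bahcc1 held its 8-mer. Gm13225 had a narrow range, from 10.01 to 29.56, with Dab2 first, then Kbtbd7 (24.23), Fscn1 (21.67), Sirt7 (17.97) and Heatr7a (17.64), all but Kbtbd7 with a run of 8 A. Some of these peaks lay near internal starts only: Sec61a2, Mllt10, Ltbp4, Acap1, Ech1, Dab2, Fscn1, Sirt7 and Heatr7a.

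The genes behind the peaks were counted next. 2442 of 22367 coding genes (10.9%) had a promoter peak of at least 1 of the 66 KRAB-ZFPs, 2090 of them of a single KRAB-ZFP, 352 of 2 or more, 73 of 3 or more and 24 of 4 or more. A Gm13152 promoter peak was present at 11.8% of all coding genes and at 536 of these 2442 (21.9%), which were 20.3% of the 2645 genes of Gm13152. Among the 352 genes with 2 or more KRAB-ZFPs the share was 27.8%. Per KRAB-ZFP, the percentage of coding-promoter peaks nearest to a gene with a Gm13152 promoter peak ranged widely: it was 45.5% for Zfp712, 41.6% for Zfp46, 38.1% for Zfp882, 32.8% for Gm14412 and 32.4% for Zfp810, but 9.09% for Zkscan17 and 10% for Zfp617.

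Genes with several KRAB-ZFPs came in more than one form. Joining windows whose midpoints lay within 100 bp of the next gave 2551 sites, of which 134 held 2 or more KRAB-ZFPs, 31 held 3 or more and 9 held 4 or more. 73 of the 134 were within 1 setup and 61 across setups. Tm4sf5, a tetraspanin-like membrane protein gene, had the most, with 7 KRAB-ZFPs within 116 bp, at -908 to -792 bp. All 7 were F9 samples with an HA tag, with folds from 10.8 in Zfp457 to 20.39 in Zfp938, and the windows reached up to 24 genomic copies.

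Hspa4, which encodes a chaperone of the HSP110 group, had 6 KRAB-ZFPs from 2 setups in single-copy sequence. Gm13157 had the highest fold with 33.15 (29 tags), then Gm13251 with 31.58 (77 tags), Zfp429 with 23.13 (51 tags), Zfp493 with 12.62 (53 tags), Zfp882 with 11.57 (19 tags) and Gm13225 with 11.38 (283 tags). 4 of them lay within 13 bp of each other, at -206 to -219 bp. The bases covered by at least 5 of the 6 windows are in capitals below, read in the direction of the gene; no annotated exon overlaps them.
Hspa4 (chr11:53114009-53114208, minus strand): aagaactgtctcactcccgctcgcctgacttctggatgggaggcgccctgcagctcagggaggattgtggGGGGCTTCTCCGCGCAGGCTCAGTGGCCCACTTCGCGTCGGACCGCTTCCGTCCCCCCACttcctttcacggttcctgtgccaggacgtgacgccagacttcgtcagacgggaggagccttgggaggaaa

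Tram1, an ER translocation gene, also had 6, with folds from 10.37 in Zfp456 to 26.18 in Gm13157, and it was also called for Gm13152. Fgfr4, a growth factor receptor gene, had 5 F9 HA samples within 104 bp in an intron, from 11.2 in Zfp458 to 22.96 in Zfp759. Zfp493 was at Tm4sf5 and Hspa4, and Zfp882 at Hspa4 and Tram1; neither had its own 8-mer in any promoter window.

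Other genes differed in how far apart their windows lay. Akap13, a large anchoring protein gene, had 5 KRAB-ZFPs in windows spread over 247375 bp, from Gm14412 (fold 71.9) to Gm14419 (8.21), and Eif2ak4 had 5 at sites 22467 bp apart. Plcl2 had LOC102638055, Zfp961, Gm14412 and Zfp810 at folds of 50.79, 31.09, 35.95 and 80.41 within 945 bp. Arhgap12 had Gm13157 (79.32), Zfp874a (40.02), Zfp874b (20.13) and Gm13225 (14.06), with the windows of the related Zfp874a and Zfp874b 47 bp apart. Gtf3c5 had 4, with Gm13251 highest (35.45). 9630014M24Rik and Arhgap26 shared 1 site with 4 KRAB-ZFPs, 3 of F9 HA samples and Gm13157. The same site also lay at a start of Spry4.

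At Gm10801 the 5 calls came from ES samples only, with nearly equal values: 1152 tags in Gm14419, 1201 in Gm4631, 1176 in Gm14399, 1171 in Gm14401 and 1168 in Gm8898, at folds of 1.89 to 2.36. No other coding-promoter site of 3 or more KRAB-ZFPs had a highest fold this low. At 4930425F17Rik the 4 calls lay in windows of 280 to 813 copies.

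**Figure D5:**
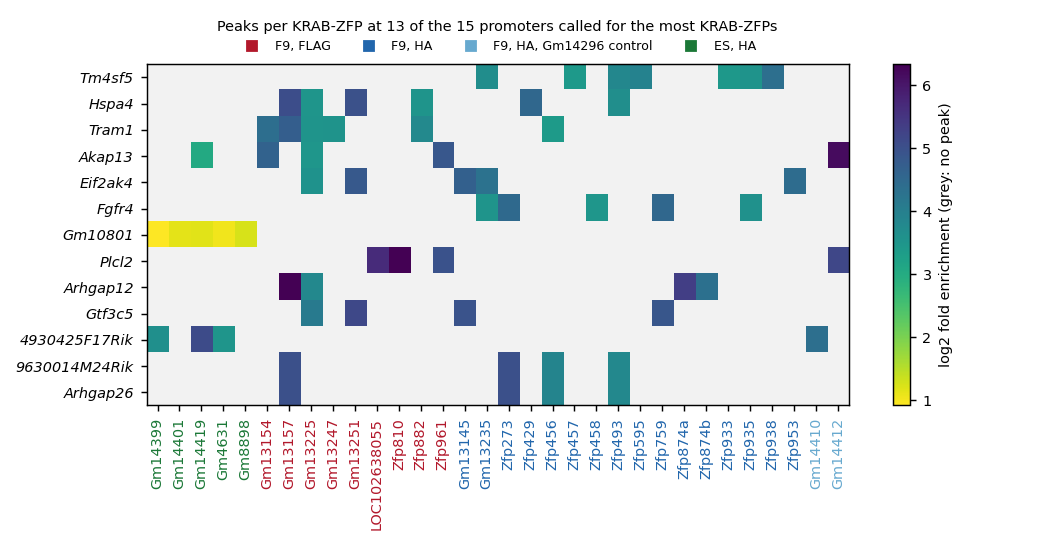
Fold enrichment (log2, colour) at 13 of the 15 genes whose promoters had peaks of the most KRAB-ZFPs (rows) for each KRAB-ZFP called there (columns, label colour by cells and tag), grey meaning no peak. Tm4sf5 is called in 7 F9 HA samples, Hspa4 and Tram1 in 6 samples of both F9 setups, and Gm10801 in 5 ES samples at the lowest folds.

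Pairs of proteins had up to 32 promoter genes in common. Each set was a small part of the 22367 coding genes, with 334 in Gm14412, 197 in Gm13225 and 136 in Zfp46. Whether overlaps exceeded those of unrelated sets of this size was not tested. Gm13225 and Gm13251, both with FLAG tags in F9 cells, had 32 genes in common, 16.2% of the 197 of Gm13225 and 26.9% of the 119 of Gm13251. The leading 8-mer was a run of A in Gm13225, in 73.3% of its promoter windows, and AAAAAAAG in Gm13251, in 12.9%. The next pairs had 9 genes or fewer. Zfp493 and Zfp882, with different tags, had 7 in common, 18.9% and 31.8% of their genes, and Gm13145 and Gm13235, both with HA tags, had 7, or 38.9% and 8.75%. Gm14412 and Zfp46 also had 7, or 2.1% and 5.15%. Gm13150 and Gm21082 had 4, or 44.4% of 9 genes and 11.4% of 35.

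Gene groups were read against the 10.9% of all coding genes with a promoter peak. Genes for translation factors and tRNA synthetases had one in 25 of 101 (24.8%), and for Gm13152 in 21.8%. Besides Vars2 these included Eif3f with Zfp599 (fold 42.35), Qars with Zfp661 (36.35), Eef1a2 with Zfp810 (32.67) and Eif5b with EtOHi1 (32.05). Respiratory chain genes had one in 21 of 99 (21.2%), among them Cox7a2 with Zfp738 (70.06), Cox7a2l with Zfp273 (44.18) and Atp5f1 with Zfp493 (32). Mitochondrial ribosomal protein genes had one in 13 of 77 (16.9%), 3 of the highest 5 with Zfp599: Mrpl51 (40.05), Mrps30 (28.8) and Mrps9 (27.1).

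RNA polymerase subunits and general factors had one in 16 of 105 (15.2%), spliceosome genes in 11 of 77 (14.3%), with Prpf38b first (Zfp599, 76.29), and cytosolic ribosomal protein genes in 9 of 82 (11%), with Rpl11 and then Rpl37a (Gm14412, 59.24). Histone genes had one in 6 of 79 (7.59%), with H3f3a first (Zfp661, 53.84), and proteasome genes in 3 of 48 (6.25%), with Psme4 first (Gm14406, 40.83). Groups of housekeeping function lay on both sides of the background.

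Genes of the silencing pathway had a promoter peak in 6 of 26 (23.1%). LOC102638055 at Ehmt2 was the strongest, then Gm14412 at Trim28, the KAP1 gene, with a fold of 45.84 at -640 bp. Zfp429 at Atf7ip, a partner of Setdb1, had 32.63, Zfp273 at Atrx 28 and Zfp882 at Dnmt3a 19.29. These 5 peaks came from 5 different proteins. C2H2 zinc finger genes had one in 53 of 404 (13.1%), from 31 KRAB-ZFPs, with Zscan21, Zfp292, Zfp2, Zfp382 (Gm14412, 101.71) and Zfp36 (Zfp599, 77.92) first. The last encodes an RNA-binding protein of another zinc finger type.

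Of the 62 assayed KRAB-ZFPs with an annotated coding gene of that symbol, 9 had a promoter peak at their gene. In 3 the assayed protein and the gene were the same: Zfp46 (fold 21.2), Zfp617 (25.08) and Zfp882 (25.16). All 3 windows lay in coding exons, 828, 89 and 53 bp downstream of a start, and the cells carried an added construct encoding the same protein. The part of that construct in these 3 calls was not tested. The others were Gm14419 at Gm13139 (57.31, 5 copies) and Gm13157 (16.03), Zfp810 at Zfp273 (20.1), Gm14393 at Zfp599 (11.48), Zkscan17 at Zfp600 (15.14, 5 copies), and Gm13225 and Gm14401 at Zfp961 (10.86 and 17.96).

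Developmental and receptor genes differed. Hox genes, which pattern the body axis, had a promoter peak in 7 of 40 (17.5%), with Hoxc5 (Zfp599, 105.02), Hoxd3 and Hoxb9 (Zfp961, 37.57 and 28.5), Hoxa13 (Gm14412, 23.11) and Hoxd12 (Gm13154, 22.21). Pluripotency genes had one in 4 of 28 (14.3%): Tet2 (Gm14401, 23.85), Pou5f1 (Gm14419, 21.64), Dppa2 (Zkscan17, 11.45) and Tbx3 (Zfp493, 10.35). Germline genes had one in 3 of 63 (4.76%): Dazl (Zfp661, 40.11), Prdm9 (Gm14419, 27.57) and Stag3 (Gm13225, 11.01). The first pair of the pluripotency genes were called in ES cells.

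Imprinted genes had one in 2 of 28 (7.14%), Inpp5f (Zfp429, 82.17) and Mest (Zfp661, 20.05), and clustered protocadherin genes in 1 of 24 (4.17%), Pcdhgc5 (Zfp661, 72.4). Olfactory receptor genes had a promoter peak in 8 of 1113 (0.719%) and vomeronasal receptor genes in 4 of 322 (1.24%), the lowest of the groups. The olfactory genes were each called by a different KRAB-ZFP, led by Olfr486 (Zfp961, 31.09). No olfactory, vomeronasal or protocadherin gene of these lists had a Gm13152 promoter peak.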

How the data were processed

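ChIP-seq peaks of 67 labelled KRAB-ZFPs were used, 1 sample each; 1 name with 244 rows matched no label and 1 labelled KRAB-ZFP had no rows, so both were left out. Per the labels and methods, the authors mapped reads to mm9 with Bowtie or Bowtie2, placed reads with several equally good positions pseudo-randomly, called peaks per sample with MACS (version 1.4.2 in the submitters' processing notes) and reduced each to 200 bp around its summit. The deposited table holds per peak the tags as raw counts and a deposited score (10 times the negative log10 of p). It also holds the authors' fold enrichment, a ratio, and the false discovery rate, deposited as a percent. Thresholds differed between samples (p of 1e-10 or 1e-05, enrichment of 20, 10 or none in ES cells), so peak numbers are not comparable across them. Library depth is unknown.

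Midpoints were matched to starts of 78248 transcripts of 22367 protein-coding genes (gencode vM1 on NCBIM37, which is mm9). Copy number was the median genomic count of a window's 24-mers. Means over KRAB-ZFPs were compared by two-sided permutation tests (100000 resamples) and paired differences by sign-flip permutation, with Benjamini-Hochberg adjustment over 5 measures. All were checked on simulated data. Python 3.11.15 with numpy 2.4.6, pandas 2.3.3, scipy 1.17.1 and statsmodels 0.14.6 was used. Alternatives were distances of 500 bp and 2 kb, stricter thresholds, single-copy windows, other transcripts, tags and overlaps. The named genes were those with the most KRAB-ZFPs at their promoters (15), the highest folds (10 in all, 5 for each of 8 KRAB-ZFPs), up to 5 per gene list, the windows nearest the 1 kb limit, promoters of assayed KRAB-ZFP genes, and the sites printed. The members and lists were chosen with earlier results of these data known. Results for a few of these genes and sites are not reported here.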

Additional observations from a re-analysis of the deposited data

Results flagged for a closer look

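Among the 10 F9 samples called against the Gm14296 control, Gm14412 stood far above the others with 308 coding-promoter peaks, the next being Gm14406 with 17. 16 highest or lowest values of groups were tested in this way, and chance flags about 1 in 20 groups. Its share of peaks at coding promoters, 11.1%, did not stand apart in the same way.

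Rows outside the comparisons also lay at coding promoters: of the 244 rows under the name that matched no label, 12 were within 1 kb of a coding start.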

How the results depend on the processing

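No paired analysis was possible because replicate numbers only name samples; this concerns pairing of samples by number, while promoter and other peaks were compared within each KRAB-ZFP. With a p under 1e-10 and an enrichment over 20 for all samples, 1756 coding-promoter peaks remained, the difference between F9 and ES shares turned to -0.961 points and that in called width to -0.00106 log10 units, neither past the threshold in either setting. The FLAG against HA difference became 6.5 points and passed at a false discovery rate of at most 5%. Restricting to single-copy windows took tags (0.0323), called width (0.0158) and sharing (5.04 points) past the threshold. The sharing difference also passed with at least 20 coding-promoter peaks per KRAB-ZFP (7.59), within 500 bp (8.29) and under the stricter thresholds (5.48), but not with overlaps of at least 50% (3.51) or without Gm13152 (-0.807). Its single-copy, 500 bp and strict settings were chosen after seeing the data. The settings that passed all counted overlaps with Gm13152, and the KRAB-ZFPs are not independent in this measure. Genes with 2 or more KRAB-ZFPs numbered 205 within 500 bp, 656 within 2 kb and 146 under the stricter thresholds. The causes were not tested, but narrower distances and stricter thresholds leave fewer peaks. 38 of 52 alternatives over 11 results kept the direction, the side of the threshold and, for counts, stayed within 1.5 times. The lower multi-copy share at promoters kept its direction and passed under its 4 alternatives, from -26.1 to -19.1 points. Of these alternatives 1 was added after seeing the data. Choosing peaks at promoters itself favours this direction. Restricting FLAG against HA to samples labelled with the strict thresholds, chosen after seeing the data, gave 2.99 points. The alternative of placing peaks by the summit column was not run, because that column counts from a called start that is not in the table used here. Choosing 8-mers on odd-numbered chromosomes, also chosen after seeing the data, gave the same 8-mer in 16 of 30 KRAB-ZFPs. Zfp882 was among those where it changed, to AAAAAAAG, in 19% of promoter windows and 7.89% of other windows.

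Unknown library depth, thresholds that differ between samples and a single sample per KRAB-ZFP limit every comparison of peak numbers. In ES cells the median false discovery rate at coding promoters ranged from 0.96% to 47.3%. For 4 KRAB-ZFPs with the Gm14296 control this median rate was 100%. Among F9 HA samples it reached 28.6% in Gm13150, 22.2% in Zfp456 and 11.5% in Zfp273.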

Other observations

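Several further sites held 3 or more KRAB-ZFPs within a short stretch of single-copy promoter sequence. At Mad1l1, which encodes a spindle checkpoint protein, 4 F9 HA samples (Gm13145, Gm13235, Zfp458 and Zfp872) lay within 24 bp at folds of 13.16 to 22.68. At Ddx23, a splicing helicase gene, Gm13251, Gm14391 and Zfp808 lay within 17 bp and came from 3 setups, at folds of 10.06 to 36.34. The lowest fold was that of Gm14391, beside its enrichment threshold of 10. The median false discovery rate of the Gm14391 coding-promoter peaks was 100%. At Sp1, which encodes a GC-box binding activator, Zfp457, Zfp709 and Zfp935 lay within 12 bp at folds of 10.66 to 11.97. All 3 were F9 HA samples called at an enrichment threshold of 10. Away from coding promoters they shared 31.4%, 30.6% and 43.5% of their windows with another KRAB-ZFP. At Rora, a nuclear receptor gene, Gm13225, Gm13251 and Zfp882 lay within 115 bp at folds of 14.44 to 28.06. These 4 genes were chosen after their values were seen.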
